A study of Mus musculus with 15 samples.

Results

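The genes described here encode the subunits of the mitochondrial respiratory chain in mouse XCR1+ dendritic cells (DCs), measured on 15 Affymetrix mouse whole-genome arrays. They were chosen by a rule on gene symbols, with earlier results of these data known. The rule took names that start with Nduf followed by a, b, c, s or v and a digit. It also took the 4 Sdh subunits, Uqcr genes, Cyc1, Cox4 to Cox8 genes and Atp5 genes, on probe sets that carry exactly 1 symbol. The rule found 82 of the 18194 genes on the array, each read by its probe set of highest mean signal. Complex I held 33 of them, complex II 4, complex III 9, complex IV 19 and complex V 17. Ndufa4 was counted with complex IV, where its protein is found, and so was its paralogue Ndufa4l2. The testis form Cox7b2 and the heart and muscle forms Cox7a1 and Cox8b stayed under the signal required for testing, which left 79 of the 13629 genes tested.

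The arrays form 5 groups of 3. Immature cells were sorted from thymus or spleen of untreated mice as CD11c+ CD317- CD172a- CD117+ CCR7- (thymus CCR7-, spleen CCR7-). Mature cells of untreated mice were CD117- CCR7+ within the same CD11c, CD317 and CD172a gates (thymus CCR7+, spleen CCR7+), and the labels call their maturation homeostatic. The last group held spleen cells of that mature gate from mice given 10 µg of polyI:C, a double-stranded RNA mimic that acts through Toll-like receptor and RNA-sensor pathways, by intraperitoneal injection 18 h earlier. The study asked how far maturation in the thymus resembles that in the periphery. XCR1 is in the sample names but not among the sort gates, and CCR7 and CD117 were sorted on. Strain, age and pooling of the mice are not stated in the labels. Nor do the labels say whether replicates came from separate mice, so the p-values cover the spread among these arrays alone, which may be technical.

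In the inner mitochondrial membrane, complexes I and II pass electrons from NADH and succinate to ubiquinone, complex III passes them on to cytochrome c, and complex IV gives them to oxygen. Complexes I, III and IV pump protons, and complex V, the ATP synthase, uses the proton gradient to make ATP. All genes here are nuclear; the subunits encoded by mitochondrial DNA are outside the rule. Dendritic cells activated through Toll-like receptors are known for a shift from oxidative phosphorylation towards glycolysis.

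The nuclear genes of the chain are known targets of NRF1 and of ETS-family factors such as GABP, so the promoters were searched for a motif of each. RefSeq windows (mouse build GRCm38.p6, 250 bases before to 50 after the gene start) matched 66 of the 82 genes. On either strand, the palindromic NRF1 motif stood in 6.06% of the subunit windows and 1.32% of all 17492 protein-coding windows, and CCGGAAG (ETS) in 24.2% and 11.9%. YY1's AAGATGGCG stood in 7.58% and 1.94%. The motifs TCAAGGTCA (ERR), TGACGTCA (CRE) and GGGCGG (SP1) were also searched. They stood in 3.03%, 4.55% and 42.4% of the subunit windows and in 0.332%, 2.34% and 46.3% of all windows. None of the 30 complex I windows held the NRF1 motif, and 4 held that of YY1. The NRF1 motif stood in 2 of 37 windows of genes that fell after polyI:C and in 2 of 26 of tested genes that did not. For the ETS motif these were 7 of 37 and 9 of 26, so the printed genes do not stand for their groups. The 250 bases before the start are shown for a complex I gene whose signal fell and for subunit genes of complexes IV and V whose signal was not called changed in maturation, with the NRF1 and ETS matches in capitals (CTTCCGG is the ETS motif on the other strand). A match is a description of the letters, not a binding site.
Ndufs3, chr2:90904722-90904971, minus strand: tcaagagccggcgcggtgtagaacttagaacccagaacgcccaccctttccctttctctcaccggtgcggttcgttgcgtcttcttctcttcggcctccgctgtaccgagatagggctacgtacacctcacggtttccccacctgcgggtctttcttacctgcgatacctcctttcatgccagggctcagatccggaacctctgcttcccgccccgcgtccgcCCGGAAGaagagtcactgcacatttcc
Cox6a1, chr5:115348959-115349208, minus strand: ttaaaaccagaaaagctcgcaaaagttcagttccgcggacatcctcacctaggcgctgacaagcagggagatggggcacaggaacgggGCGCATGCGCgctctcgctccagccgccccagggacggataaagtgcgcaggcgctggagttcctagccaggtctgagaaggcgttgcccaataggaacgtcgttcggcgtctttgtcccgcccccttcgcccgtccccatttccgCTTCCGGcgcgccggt
Atp5k, chr5:108434400-108434649, minus strand: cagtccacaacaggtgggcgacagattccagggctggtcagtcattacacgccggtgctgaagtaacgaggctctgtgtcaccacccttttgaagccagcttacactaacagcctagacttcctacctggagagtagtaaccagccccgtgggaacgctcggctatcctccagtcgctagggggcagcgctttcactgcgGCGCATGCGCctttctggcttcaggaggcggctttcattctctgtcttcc

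Values are the deposited log2 signals, and a change is a difference of group means on that scale. A gene is called, and said to have risen or fallen, at an adjusted p under 0.05 from limma fitted over all genes tested, and all p-values below are of this kind. All 11 matched XCR1+ DC markers were above the signal filter in every group, although their summed log2 signal was lower in mature cells (95.3 to 97.9 in thymus CCR7+ against 118.2 to 120.1 in thymus CCR7-). Of the 11, 7 fell in thymic maturation, 9 in splenic homeostatic maturation and 8 after polyI:C, and 2, 2 and 1 rose. Of all genes 20.4%, 24.1% and 28% fell and 16.8%, 12.3% and 18.4% rose in these comparisons. T cell markers rose in thymic maturation (6 of 7, summed signal 37.2 to 42.9 in CCR7- and 47.6 to 53.4 in CCR7+ arrays), and B cell markers (4 of 5, 27.2 to 28.9 and 32.3 to 37.8) and 2 of 4 plasmacytoid DC markers in splenic homeostatic maturation. B cell markers also rose in thymic maturation (2 of 5, 24.8 to 26.6 and 27.1 to 34.1). After polyI:C the B cell marker sum (27.5 to 30.2) overlapped that of spleen CCR7-, 1 of 7 T cell markers rose while the T cell marker sum was 37.6 to 38.1 against 32.1 to 33.6, and the neutrophil marker sum was 14.3 to 16.2 against 12 to 12.6. The part of such cells in the results was not tested, and in sorted bulk samples fewer cells of a type and less RNA per cell cannot be told apart. The array spleen CCR7+ replicate 1 stood apart, with the lowest weight of the 15 (0.308).

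On the deposited scale most genes of complexes I, II and III fell after polyI:C, while complex IV had at most 1 fall in each maturation. With each array centred on its median, as described below, 13 of 33, 2 of 4 and 4 of 9 genes of complexes I, II and III fell after polyI:C. In thymic maturation 22 of the 79 subunit genes fell and 0 rose (limma; 28 lower and 1 higher at an unadjusted p under 0.05), beside 20.4% of all tested genes lower and 16.8% higher (37.3% in either direction). In splenic homeostatic maturation 14 fell and 2 rose, beside 24.1% of all genes lower and 12.3% higher (36.5% in either direction). After polyI:C 43 fell and 1 rose against spleen CCR7-, beside 28% lower and 18.4% higher (46.4% in either direction). The share of subunit genes that fell was 27.8% in thymus, near the background there, 17.7% in untreated spleen, below the background, and 54.4% after polyI:C. Both splenic comparisons use the same spleen CCR7- arrays. Without spleen CCR7+ replicate 1 the untreated spleen had 23 falls and 0 rises, and without spleen CCR7- replicate 1 it had 9 falls and 0 rises.

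The arrays of the groups did not overlap for 36 lower and 6 higher subunit genes in thymus, beside 28.5% and 21.9% of all genes. They did not overlap for 17 lower and 3 higher in untreated spleen, beside 27% and 15.9%, and for 47 lower and 2 higher after polyI:C, beside 31.7% and 25.5%. Of these 2, Ndufb4 passed the signal filter only through its polyI:C arrays. It had to be high there to be tested, so its separation is no result. The median change of the 79 genes was -0.29, -0.19 and -0.62, and that of all genes -0.06, -0.03 and 0.02.

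**Figure D1:**
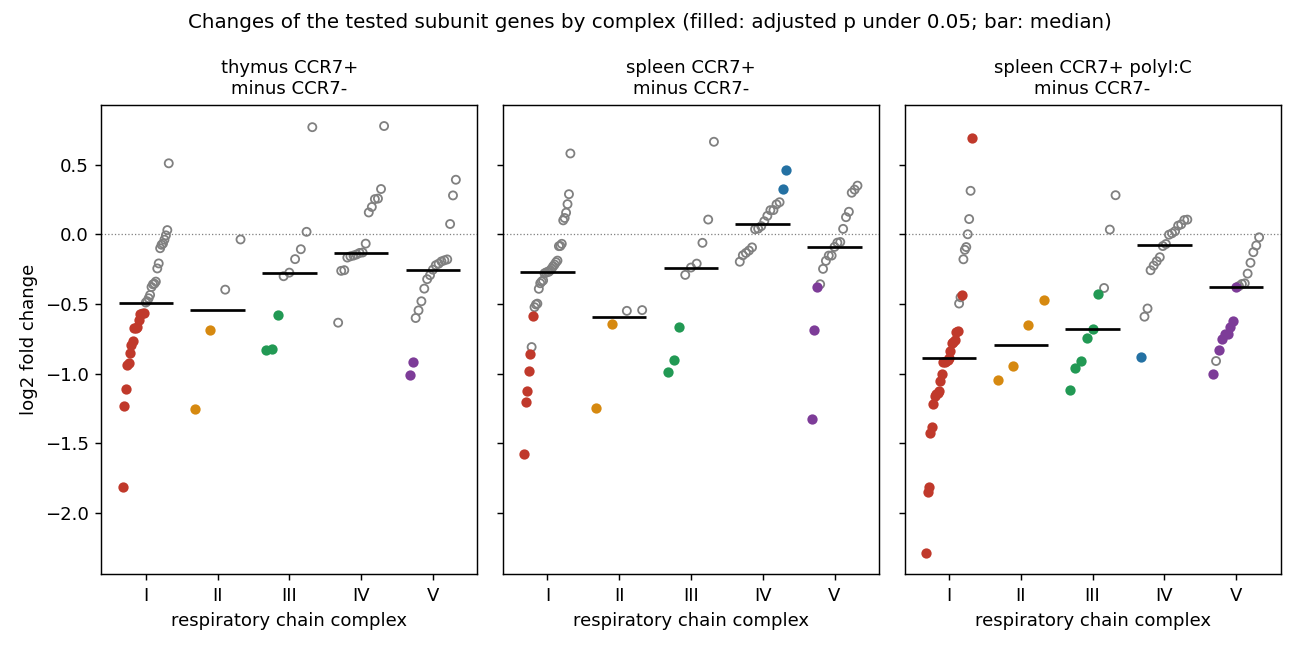
Log2 fold change (vertical axis) of each tested subunit gene by complex (horizontal axis) in 3 maturation comparisons; filled points have an adjusted p under 0.05 and bars are medians. Complex I reaches down to -2.29 after polyI:C, while the medians of complex IV stay between -0.13 and 0.08.

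These counts depend on how the arrays are scaled. Centring each array on the median of the genes tested moved every change up by 0.13 in thymus, 0.26 in untreated spleen and 0.35 after polyI:C. The subunit genes that fell were then 13, 8 and 22 of 79, and those that rose 1, 4 and 4. Of all genes 17.4%, 16.9% and 20.7% fell and 19.7%, 20.6% and 39.1% rose with this centring, so the falls of the subunit genes were near the background in thymus, below it in untreated spleen and above it after polyI:C. The median of the subunit genes became -0.16 and -0.28 in thymus and after polyI:C but turned to 0.07 in untreated spleen. The share of falls among all called genes went from 66.2% to 45% in untreated spleen and from 60.4% to 34.6% after polyI:C, and from 54.9% to 46.8% in thymus.

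Differences between complexes within an array do not depend on such scaling. For each array the mean signal of 10 ubiquitous complex IV genes was subtracted from that of each other complex. Since probe sets differ in brightness, only the change of this gap between groups carries information, and it shows unequal change, not which complex moved. The gap of complex I was -1.15 ± 0.05 (SD, n = 3) in thymus CCR7- and -1.69 ± 0.10 in thymus CCR7+. It was -1.25 ± 0.09 in spleen CCR7-, -1.69 ± 0.04 in spleen CCR7+ and -1.85 ± 0.15 after polyI:C. Every immature array lay above every mature array.

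The gap of complex II went from -0.76 ± 0.21 to -1.38 ± 0.18 in thymus, and in spleen from -0.73 ± 0.34 to -1.58 ± 0.32 and, after polyI:C, -1.31 ± 0.13. For complex III it was -0.90 ± 0.12 and -1.18 ± 0.12 in thymus, and -0.91 ± 0.15, -1.29 ± 0.07 and -1.25 ± 0.07 in the 3 spleen groups. For complex V it was -0.22 ± 0.04 and -0.54 ± 0.08 in thymus, and -0.26 ± 0.10, -0.50 ± 0.09 and -0.55 ± 0.10 in spleen. The groups of immature and mature arrays of a tissue did not overlap for any of the 4 complexes, though for complexes III and V the nearest arrays lay close together. The mature groups of spleen with and without polyI:C overlapped for complexes I, II, III and V.

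**Figure D2:**
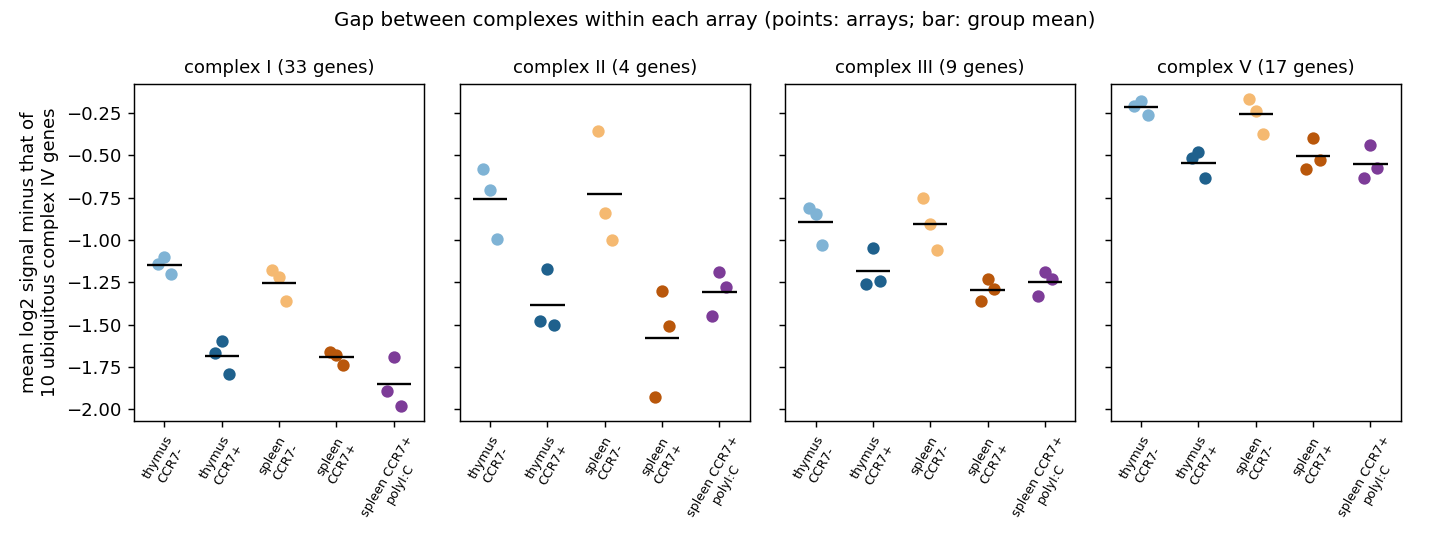
Mean log2 signal of complexes I, II, III and V minus that of 10 ubiquitous complex IV genes (vertical axis) in each array (points) of the 5 groups (horizontal axis), with group means as bars. In complex I the immature groups average -1.15 and -1.25 and the 3 mature groups -1.69 to -1.85.

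In complex I 15 of 33 tested genes fell in thymus (45.5%, beside 20.4% of all genes). In untreated spleen 6 fell (18.2%, below the 24.1% of all genes), and after polyI:C 24 fell (72.7%, beside 28%) and 1 rose. After centring on array medians the falls were 8, 4 and 13, with 0, 1 and 2 rises. Its median change was -0.49, -0.27 and -0.89, or -0.36, -0.00 and -0.54 after centring. In the matrix arm, which takes electrons from NADH, 7 of 14 genes fell in thymus, 5 in untreated spleen and 11 after polyI:C. In the membrane arm 8, 1 and 13 of 19 fell.

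The accessory matrix-arm subunit gene Ndufa5 had the largest fall in thymus and after polyI:C. It read 9.34, 8.97 and 9.55 in thymus CCR7- and 7.57, 7.67 and 7.18 in thymus CCR7+, a change of -1.81 (SE 0.33, adjusted p = 0.00049). In spleen it read 8.63, 8.59 and 8.60 in CCR7- cells, 8.29, 7.65 and 7.45 in CCR7+ cells and 6.40, 7.10 and 5.46 after polyI:C. The fall after polyI:C was -2.29 (SE 0.33, adjusted p = 4.67e-05). The 3 polyI:C arrays were below all the other 12, and the change in untreated spleen (-0.81) was not called.

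Ndufv1, which binds FMN and takes the electrons from NADH, stepped down over the spleen groups. Its signal was 10.23, 10.06 and 9.76 in spleen CCR7-, 9.16, 9.06 and 8.89 in spleen CCR7+ and 8.12, 8.54 and 7.83 after polyI:C, and these 3 groups did not overlap. The change was -0.98 in homeostatic maturation (SE 0.18, adjusted p = 0.000793) and -1.85 with polyI:C (SE 0.18, adjusted p = 1.49e-06). In thymus it went from 10.47, 10.31 and 10.18 to 9.54, 9.84 and 9.60 (-0.66, SE 0.18, adjusted p = 0.0101).

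The core subunit gene Ndufs3 behaved alike in spleen. It read 10.37, 10.41 and 10.36 in CCR7-, 8.85, 9.61 and 9.29 in CCR7+ and 8.62, 8.82 and 8.25 after polyI:C. It fell by 1.13 in homeostatic maturation (adjusted p = 0.000374) and by 1.81 with polyI:C (adjusted p = 2.59e-06). In thymus its change of -0.38 was not called.

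Ndufs1, the largest iron-sulphur subunit, had the largest complex I fall in untreated spleen. It read 9.37, 9.18 and 9.46 in CCR7- and 7.06, 8.56 and 7.66 in CCR7+ cells, a change of -1.58 (SE 0.31, adjusted p = 0.00127). The array at 7.06 was spleen CCR7+ replicate 1. Its thymic fall of -0.85 (adjusted p = 0.0454) lay near the threshold and was lost when any of 5 of the 6 thymic arrays was left out, with values of -0.73 (without thymus CCR7- replicate 1) to -0.92 (without thymus CCR7+ replicate 2). The change after polyI:C was -1.05 (adjusted p = 0.0128) and became -0.78 (adjusted p = 0.0726) without polyI:C replicate 3.

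Ndufa9, an accessory subunit near the ubiquinone site, fell in all 3 maturations. It read 12, 12.23 and 12.04 in thymus CCR7- and 10.61, 10.81 and 11.13 in thymus CCR7+ (-1.24, SE 0.26, adjusted p = 0.00153). In spleen 12.05, 12.05 and 11.74 in CCR7- cells stood against 10.05, 10.86 and 11.31 in CCR7+ cells and 10.66, 10.70 and 10.20 after polyI:C, changes of -1.21 and -1.43. The iron-sulphur core subunit gene Ndufs8 fell in the same 3 comparisons, with changes of -1.11, -0.86 and -0.91. Of its 6 probe sets the dimmest went the other way. Both splenic calls of Ndufs8 were lost after centring (-0.59, adjusted p = 0.0646, and -0.56, adjusted p = 0.0549).

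Ndufv2, the iron-sulphur partner of Ndufv1 in the NADH-oxidising module, went the other way. Its signal was 11.06, 10.88 and 11.30 in spleen CCR7- and 11.88, 11.67 and 11.77 after polyI:C, with no overlap. The rise was 0.69 (SE 0.24, adjusted p = 0.0276), and it lost its call on the probe set without an _a_at or _x_at suffix (0.28, adjusted p = 0.359), on the mean of its probe sets (0.48, adjusted p = 0.0701) and without spleen CCR7- replicate 1 (0.69, adjusted p = 0.0671) or replicate 2 (0.59, adjusted p = 0.095). Without polyI:C replicate 1 it was 0.64 (adjusted p = 0.0813) and without polyI:C replicate 3 it was 0.69 (adjusted p = 0.0629). In thymus and untreated spleen it changed by 0.51 and 0.58, which were not called.

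**Figure D3:**
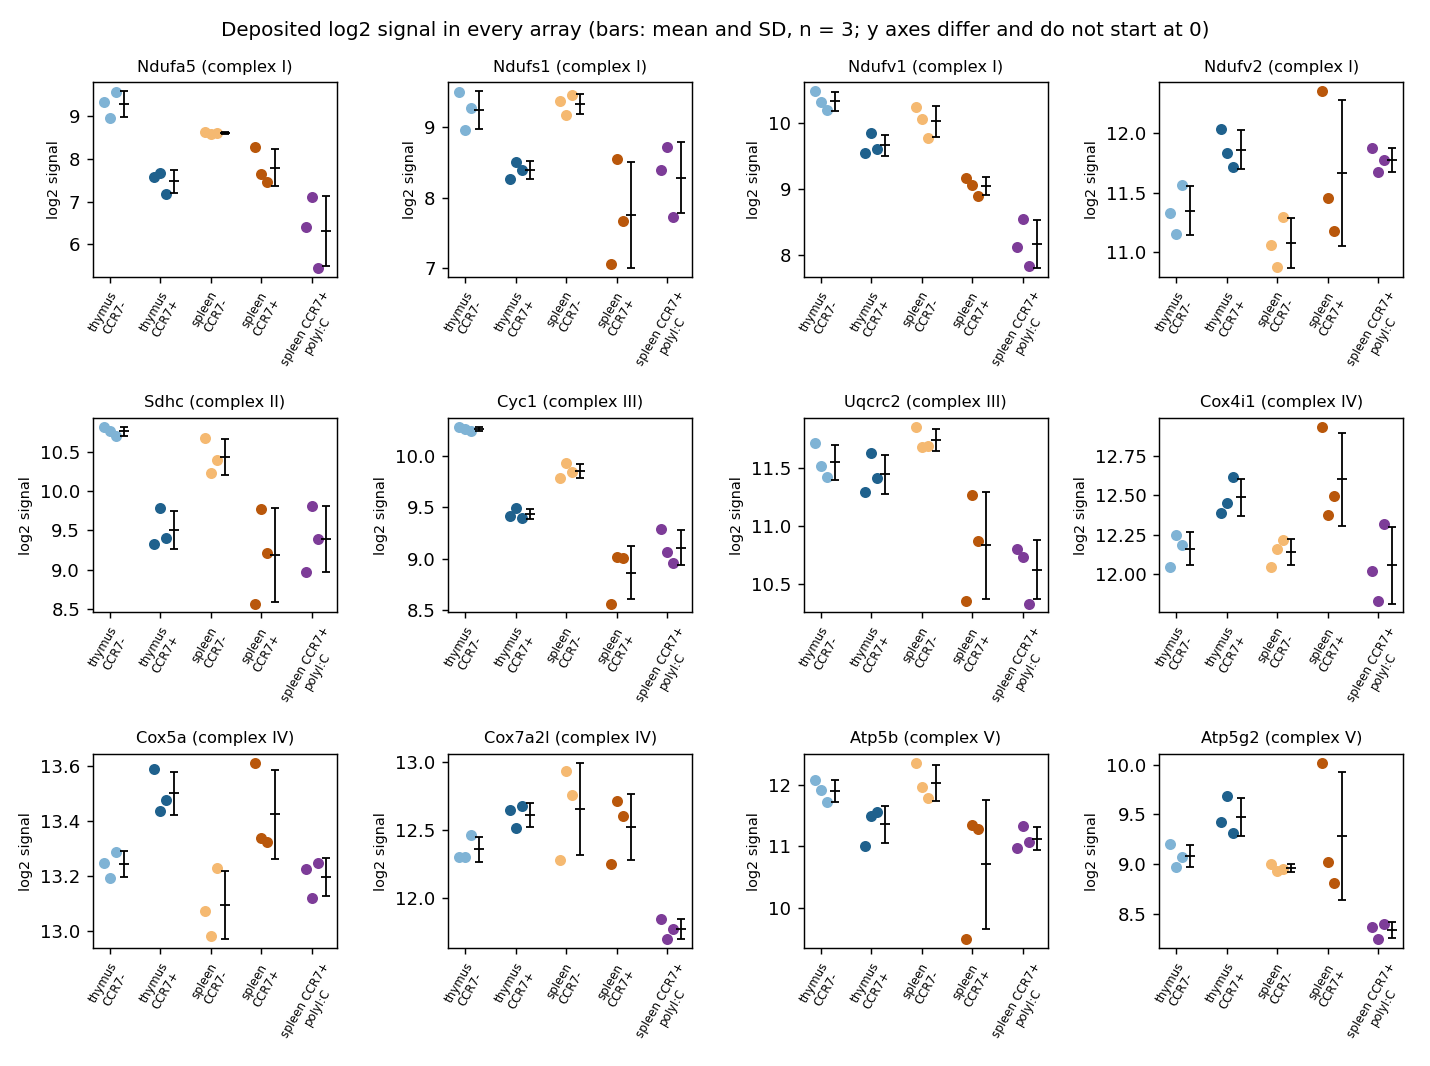
Deposited log2 signal (vertical axes, which differ and do not start at 0) of 12 subunit genes in each array of the 5 groups, with the mean and SD of 3 arrays beside them. Ndufv1 steps down over the 3 spleen groups, Ndufv2 and Cox4i1 do not, and Cox7a2l is lowest after polyI:C.

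Complex II, the succinate dehydrogenase that is also an enzyme of the citric acid cycle, fell most evenly after polyI:C, when all 4 genes were called (2 of 4 after centring). Of all genes 28% fell in that comparison (20.7% after centring). Sdhc, a membrane anchor, read 10.82, 10.77 and 10.71 in thymus CCR7- and 9.33, 9.79 and 9.40 in thymus CCR7+ (-1.26, SE 0.27, adjusted p = 0.00175). In spleen it read 10.68, 10.23 and 10.40 in CCR7-, 8.57, 9.77 and 9.22 in CCR7+ and 8.97, 9.81 and 9.39 after polyI:C. These changes were -1.25 (adjusted p = 0.00211) and -1.05 (adjusted p = 0.00492), and the mature groups of spleen overlapped.

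Sdhb, the iron-sulphur subunit, fell in all 3 comparisons as well. It read 10.96, 11.02 and 11.07 in thymus CCR7- and 10.34, 10.19 and 10.45 in thymus CCR7+ (-0.69). In spleen it went from 10.67, 10.35 and 10.91 to 10.25, 9.92 and 9.83 (-0.64) and to 10.11, 10.04 and 10.37 after polyI:C (-0.47, adjusted p = 0.0286), where the arrays overlapped. All 3 Sdhb calls were lost after centring, and the polyI:C one also without spleen CCR7- replicate 3 (-0.34, adjusted p = 0.135) and, nearer to the threshold, without spleen CCR7- replicate 1 or polyI:C replicate 1 or 2. Sdhd, the other membrane anchor, changed by -0.40 and -0.55 in the untreated tissues, with no call, and fell by 0.94 with polyI:C.

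Sdha, the catalytic flavoprotein, had a call with polyI:C alone (-0.65, adjusted p = 0.0219). Its arrays were 11.73, 11.35 and 11.24 in spleen CCR7- and 10.58, 11 and 10.78 after polyI:C. That call was lost without spleen CCR7- replicate 1 (-0.51, adjusted p = 0.104), without polyI:C replicate 1 (-0.55, adjusted p = 0.0881) and without polyI:C replicate 3 (-0.65, adjusted p = 0.0534). It was also lost after centring (-0.31, adjusted p = 0.16) and on the mean of probe sets (-0.20, adjusted p = 0.141). Its other bright probe set gave -0.67 and a much dimmer one 0.37.

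In complex III, 3 of 9 genes fell in thymus, 3 in untreated spleen and 6 with polyI:C. These shares were 33.3%, 33.3% and 66.7%, beside 20.4%, 24.1% and 28% of all genes. After centring 2, 2 and 4 fell, beside 17.4%, 16.9% and 20.7% of all genes. Cyc1, the cytochrome c1 of the complex, was the steadiest. It read 10.28, 10.26 and 10.24 in thymus CCR7- and 9.41, 9.49 and 9.40 in thymus CCR7+ (-0.83, SE 0.14, adjusted p = 0.000292). In spleen 9.79, 9.93 and 9.84 in CCR7- cells stood against 8.56, 9.02 and 9.01 in CCR7+ cells (-0.99) and 9.29, 9.07 and 8.96 after polyI:C (-0.75). Ndufa9, Sdhc and Cyc1 kept their calls in these 3 comparisons under every alternative tried and without any single array.

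Among the core proteins, Uqcrc1 fell in thymus, untreated spleen and after polyI:C, with changes of -0.58, -0.66 and -0.91. After centring the thymic (-0.45, adjusted p = 0.103) and untreated splenic (-0.40, adjusted p = 0.13) calls were lost. The thymic call was also lost without thymus CCR7+ replicate 1 (-0.37, adjusted p = 0.165) or thymus CCR7- replicate 1 (-0.56) or 2 (-0.50), and the splenic one without spleen CCR7- replicate 1 or spleen CCR7+ replicate 2 (both -0.55). Uqcrc2 read 11.72, 11.52 and 11.42 in thymus CCR7- and 11.30, 11.63 and 11.41 in thymus CCR7+, which overlap (-0.11, not called). In spleen it read 11.85, 11.68 and 11.69 in CCR7-, 10.36, 11.27 and 10.88 in CCR7+ and 10.80, 10.74 and 10.34 after polyI:C, changes of -0.91 and -1.12, both called. The small subunit gene Uqcr11 fell in thymus (-0.83) and after polyI:C (-0.96). Uqcrh, the hinge protein gene, had positive changes of 0.77, 0.67 and 0.28, none called.

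Complex IV had the lowest share of falls called by limma in each of the 3 maturations. In thymus 0 of 16 tested genes fell (1 lower at an unadjusted p under 0.05). In untreated spleen 0 fell (0 lower at an unadjusted p under 0.05), and 1 fell with polyI:C. Of all genes 20.4%, 24.1% and 28% fell. After centring 0, 0 and 1 fell and 0, 2 and 2 rose, and of the 17 complex V genes 2, 1 and 2 fell. Of all genes 17.4%, 16.9% and 20.7% then fell. The 16 include Cox4i2, Cox6a2, Cox6b2, Cox8c and Ndufa4l2, whose low mean signals of 4.63 to 6.97 leave less room to fall. Before centring, the 10 ubiquitous genes of the complex had 9 negative changes and 1 positive after polyI:C, with a median of -0.18. Against spleen CCR7+ all 10 polyI:C changes were negative, with a median of -0.29. Cox4i1, the ubiquitous form of subunit 4, read 12.05, 12.16 and 12.21 in spleen CCR7- and 12.94, 12.37 and 12.50 in spleen CCR7+, a rise of 0.46 (SE 0.16, adjusted p = 0.039). Without spleen CCR7+ replicate 1 it was 0.30 (adjusted p = 0.178), and the call was also lost without any one spleen CCR7- array (0.42 to 0.50). Cox5a read 13.07, 12.98 and 13.23 and then 13.61, 13.34 and 13.32, a rise of 0.33 (SE 0.12, adjusted p = 0.0487). Without spleen CCR7+ replicate 1 it was 0.24 (adjusted p = 0.183), and without spleen CCR7- replicate 2 it was 0.27 (adjusted p = 0.158).

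Cox7a2l, a supercomplex assembly factor related to subunit 7A, was the exception in complex IV. It read 12.28, 12.93 and 12.75 in spleen CCR7-, 12.25, 12.71 and 12.60 in spleen CCR7+ and 11.85, 11.70 and 11.77 after polyI:C. The polyI:C arrays lay below all 12 others, with a change of -0.88 against spleen CCR7- (SE 0.17, adjusted p = 0.000547) and -0.75 against spleen CCR7+ (adjusted p = 0.00647). Its 3 probe sets gave -0.88, -1.01 and -1.22 against spleen CCR7-.

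The tissue forms of complex IV were not called in any maturation. The ubiquitous forms Cox6a1, Cox6b1, Cox7a2 and Cox8a changed by -0.22, -0.00, -0.26 and -0.16 after polyI:C. The lung form Cox4i2 averaged 5.40, the muscle form Cox6a2 5.72, the testis form Cox6b2 4.63 and the testis form Cox8c 6.97 over the 15 arrays, and their polyI:C changes lay between 0.01 and 0.07. Ndufa4 changed by -0.63, -0.15 and -0.59 with no call. A p over the threshold does not show equal levels: the 95% interval of the Ndufa4 change after polyI:C ran from -1.32 to 0.14.

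Signal strength differs between the complexes and was set beside these counts. The median signal was 12.08 for the 10 ubiquitous complex IV genes and 10.32 for complex I, so a single split does not match them. Split at the median signal of the 79 genes (10.56), the brighter genes of complex I fell in 10 of 14 cases with polyI:C and those of complex IV in 1 of 9. In thymus the brighter genes fell in 0 of 9 cases in complex IV, and also in 0 of 4 in complex III and 0 of 12 in complex V. Among the dimmer genes 14 of 19 fell in complex I and 0 of 7 in complex IV after polyI:C. Those 7 include the tissue forms Cox4i2, Cox6a2, Cox6b2 and Cox8c and the paralogue Ndufa4l2, which averaged 4.63 to 6.97. The dimmer genes thus give no comparison of the complexes at equal signal. Of the 40 brighter subunit genes 5 fell in thymus, 5 in untreated spleen, 19 after polyI:C and 9 between polyI:C and homeostatic mature cells. The shares of all genes at or above that signal that fell were 20.3%, 22.3%, 29.8% and 13.3%.

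**Figure D4:**
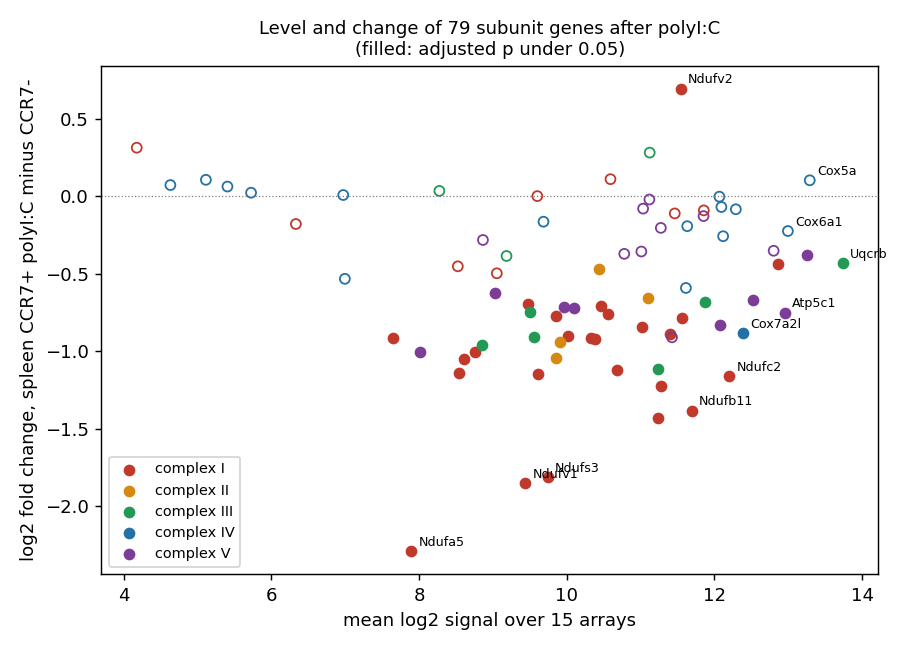
Log2 fold change after polyI:C against spleen CCR7- (vertical axis) and mean log2 signal over 15 arrays (horizontal axis) of 79 subunit genes, coloured by complex; filled points have an adjusted p under 0.05. Complex I genes fell at both low and high signal, with Ndufa5, Ndufv1 and Ndufs3 lowest, and bright complex IV genes other than Cox7a2l stay above -0.60.

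In complex V, 2 of 17 genes fell in thymus, 3 in untreated spleen and 8 with polyI:C. These shares were 11.8%, 17.6% and 47.1%, beside 20.4%, 24.1% and 28% of all genes. Those of thymus and untreated spleen thus lay below the background. After centring 2, 1 and 2 fell, beside 17.4%, 16.9% and 20.7% of all genes. The 3 genes that fell in untreated spleen before centring encode the F1 head subunits alpha, beta and gamma. Atp5b, the catalytic beta subunit, read 12.36, 11.96 and 11.79 in spleen CCR7- and 9.49, 11.35 and 11.28 in spleen CCR7+ (-1.33, SE 0.37, adjusted p = 0.0116), with the lowest value in replicate 1. Atp5a1, the alpha subunit, changed by -0.69 (adjusted p = 0.0427), also with its lowest value (11.61) in replicate 1. Without that array the change of Atp5a1 was -0.28 (adjusted p = 0.146) and that of Atp5b -0.72 (adjusted p = 0.0163). The gamma subunit gene Atp5c1 fell by 0.38 (adjusted p = 0.0471), and a second, far dimmer probe set gave 0.01. The Atp5c1 call was lost after centring (-0.12, adjusted p = 0.599), on the mean of its probe sets (-0.18, adjusted p = 0.298) and without most single arrays, with the smallest change without spleen CCR7+ replicate 3 (-0.23, adjusted p = 0.218). Atp5b lost its call without spleen CCR7- replicate 1 (-1.17, adjusted p = 0.054).

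The rotor ring is made of identical c subunits encoded by 3 genes, and these did not move alike. Atp5g1 read 8.71, 8.86 and 8.86 in thymus CCR7-, 8.01, 7.86 and 7.82 in thymus CCR7+, 8.18, 8.14 and 8.23 in spleen CCR7-, 8.51, 7.79 and 7.79 in spleen CCR7+ and 7.13, 7.28 and 7.12 after polyI:C. It fell by 0.92 in thymus (adjusted p = 0.000602) and by 1.0 with polyI:C (adjusted p = 0.000202). Atp5g2 had changes of 0.39, 0.32 and -0.62, the last one called (adjusted p = 0.0411), and Atp5g3 changes of -0.32, -0.15 and -0.38, the last one called (adjusted p = 0.0226). The last 2 calls were lost after centring. Atp5o, the OSCP that joins the stalk to the head, fell by 1.01 in thymus and by 0.72 with polyI:C, and the peripheral stalk genes Atp5j and Atp5h fell by 0.83 and 0.67 with polyI:C. After centring the polyI:C calls of Atp5o (-0.37, adjusted p = 0.107) and Atp5h (-0.32, adjusted p = 0.197) were lost.

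Thymic and splenic homeostatic maturation share no arrays, so their calls can be set side by side. Of the genes that fell, 9 were the same: Ndufa9, Ndufa10, Ndufs1, Ndufs8, Ndufv1, Sdhb, Sdhc, Cyc1 and Uqcrc1. They were 40.9% of the 22 thymic and 64.3% of the 14 splenic falls. Over 79 genes, 61 had the same sign, and across genes, which are not independent replicates, Pearson's r was 0.69 and Spearman's rho was 0.72. Over all 13629 genes the shared falls were 79% of the thymic and 66.9% of the splenic ones, 74% of genes had the same sign, r was 0.84 and rho 0.77. The shared calls of the subunit genes are thus not above those of all genes. The test of the difference between the tissues called 0 subunit genes (limma; 2 higher and 3 lower at an unadjusted p under 0.05), beside 1.79% and 1.39% of all genes (3.18% in either direction). Without spleen CCR7+ replicate 2 it called 1 as higher. The nearest was Atp5g1, with an unadjusted p of 0.00672 and an adjusted p of 0.114. A missed threshold does not show that the tissues act alike.

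With the immature baseline taken away, polyI:C cells were compared with mature cells of untreated spleen. Of the 79 genes 19 were lower and 1 higher, beside 9.66% and 8.58% of all genes (18.2% in either direction). The arrays did not overlap for 24 lower and 1 higher, beside 13.8% and 13.5%. In complex I 12 fell, in complex IV 2 (Cox4i1 and Cox7a2l) and in complex V 5, and in complexes II and III none (limma; 0 and 2 lower at an unadjusted p under 0.05). Ndufa5 (-1.48, adjusted p = 0.006), Ndufs5 (-1.02), Ndufb11 (-0.99) and Ndufb5 (-0.96) had the largest changes, all membrane-arm genes except Ndufa5. Atp5g2 fell by 0.94 and Atp5g1 by 0.85. Cox4i1 changed by -0.55. The 1 higher gene was Ndufb4, which passed the signal filter only through its 3 polyI:C arrays (4.45, 4.49 and 4.47), while all 12 other arrays lay below it. It had to be high there to be tested, so its call is no result. Without spleen CCR7+ replicate 1 the number of lower genes was 12, without polyI:C replicate 1 it was 10, and without polyI:C replicate 3 it was 9. Fitted to the compared groups only, the number was 1. After centring it was 12, beside 8.44% of all genes lower.

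Between tissues few subunit genes differed. Among immature cells 1 gene was higher in thymus and 0 lower (limma; 15 and 0 at an unadjusted p under 0.05), beside 4.92% and 3.24% of all genes (8.16% in either direction), namely Atp5g1 (0.63, adjusted p = 0.0333). Among mature cells of untreated mice 3 were higher in thymus and 0 lower (limma; 6 and 1 at an unadjusted p under 0.05), beside 8.71% and 3.47% of all genes (12.2% in either direction). These were Ndufs3 (0.82, adjusted p = 0.0112), Ndufv1 (0.62, adjusted p = 0.0395) and Cyc1 (0.57, adjusted p = 0.0161). The call of Atp5g1 was lost without any one of the 6 immature arrays, and all 3 mature calls without thymus CCR7+ replicate 2.

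Genes that build and feed the chain were read from lists of named factors. Of 43 assembly factors tested, 8 rose and 16 fell in thymus, 6 and 18 in untreated spleen and 7 and 25 after polyI:C. Of all genes 16.8%, 12.3% and 18.4% rose and 20.4%, 24.1% and 28% fell. The assembly factors were divided by complex after their values were seen, so the following counts are a description. Assembly factors of complex I fell in 9 of 13 cases in thymus, in 9 of 13 (with 1 rise) in untreated spleen and in 10 of 13 after polyI:C. Ndufaf6 read 9.60, 9.13 and 9.62 in thymus CCR7- and 6.5, 6.48 and 6.28 in thymus CCR7+ (-3.03, SE 0.27). In spleen it went from 8.94, 8.43 and 8.96 to 6.31, 6.88 and 6.43 (-2.24) and to 5.55, 6.05 and 4.83 after polyI:C (-3.30). Nubpl, which helps to place iron-sulphur clusters in complex I, changed by -1.16, -1.55 and -3.0, all called, and Ndufaf4 by -1.42, -1.46 and -2.70, all called. Assembly factors of complex IV were mixed, with 3 higher and 4 lower of 17 in thymus, 2 and 5 in untreated spleen and 5 and 7 after polyI:C.

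Of 4 assembly factors of complex II, 2 rose in every maturation, and after polyI:C the other 2 fell. Sdhaf1 read 7.30, 6.88 and 7.39 in thymus CCR7- and 9.25, 9.47 and 9.49 in thymus CCR7+ (2.22, SE 0.16). In spleen it read 7.29, 7.27 and 7.29 in CCR7-, 9.35, 9.41 and 9.70 in CCR7+ and 9.35, 9.50 and 9.71 after polyI:C, rises of 2.20 and 2.24. Sdhaf2, which helps to attach FAD to Sdha, rose by 1.11, 0.83 and 1.47. On the probe sets used, every mature array was above every immature array for both genes. A second probe set of Sdhaf2 gave 1.06, 0.47 and 1.40, and on it the untreated splenic call was lost (limma adjusted p = 0.176). Dnajc15, known as an inhibitor of complex I under its other name MCJ, rose by 1.25, 2.14 and 1.76.

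**Figure D5:**
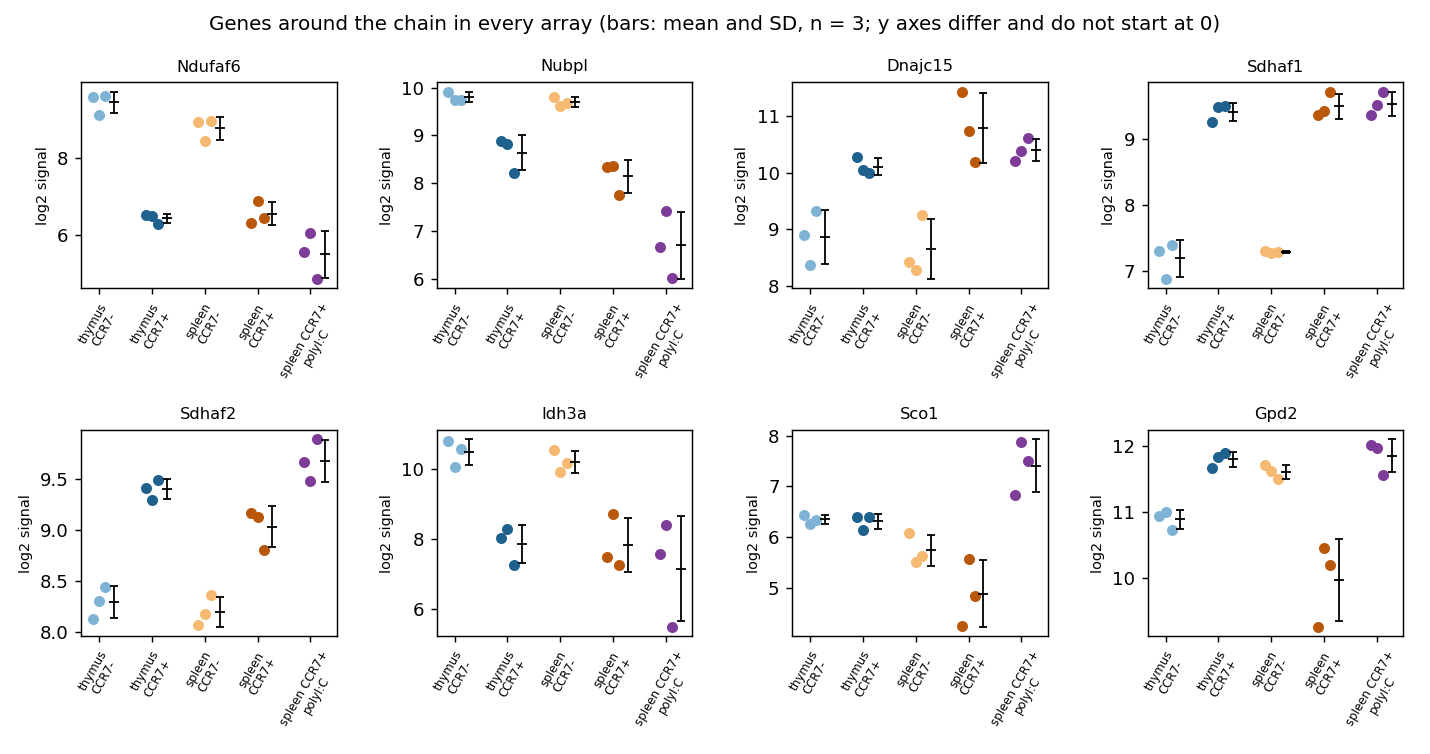
Deposited log2 signal (vertical axes, which differ and do not start at 0) of 8 genes around the chain in each array of the 5 groups, with the mean and SD of 3 arrays. Ndufaf6, Nubpl and Idh3a are low in mature cells, Sdhaf1, Sdhaf2 and Dnajc15 high, and Sco1 and Gpd2 differ between the mature groups.

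Among 16 tested genes of the citric acid cycle and pyruvate entry, 8 fell in thymus, 12 in untreated spleen and 11 after polyI:C. Of all genes 20.4%, 24.1% and 28% fell. Idh3a, a subunit of the NAD-dependent isocitrate dehydrogenase, fell in all 3 (-2.60, -2.37 and -3.04), and so did Fh1, fumarase (-1.80, -1.91 and -2.22). Of 21 genes for mitochondrial biogenesis and expression of mitochondrial DNA, 3 rose and 6 fell in thymus, 3 and 7 in untreated spleen, and 4 and 10 after polyI:C. The thymic and untreated splenic counts lie near the shares of all genes (20.4% and 24.1% lower, 16.8% and 12.3% higher). Pprc1, a PGC-1-related coactivator, fell in all 3 (-1.5, -1.42 and -1.93), and so did Tfb1m, a mitochondrial rRNA methyltransferase (-1.57, -1.60 and -2.17). Of 20 genes for carriers, cytochrome c and inhibitors, 4, 2 and 3 rose and 9, 7 and 12 fell. The rises lie near the shares of all genes (16.8%, 12.3% and 18.4% higher), and the falls stand beside 20.4%, 24.1% and 28% lower. In this group Etfdh, which passes electrons from fatty acid oxidation to ubiquinone, rose by 1.34, 1.43 and 1.76, while Etfb, its electron donor, fell (-1.38, -0.93 and -1.42).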

How the data were processed

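RNA of sorted cells (40 ng, 2 rounds of amplification) was hybridised to 15 arrays. The deposited values are log2 signals that the authors computed by RMA in affy, per the submitters' processing notes; versions, and which arrays were normalised together, are not stated there. Columns of other series in the table numbered 0. Of 45101 probe sets 34958 carried 1 symbol. A gene was tested if 3 or more arrays exceeded 4.39, the 40th percentile of the table. The test was limma 3.58.1 in R 4.3.3 with 5 group means (10 residual degrees of freedom) and Benjamini-Hochberg adjustment over 13629 genes. An exact test of 3 against 3 arrays cannot give a p under 0.1. On data simulated for thymic maturation, 200 of 13629 genes were changed, and 8.96%, 56.7% and 93.9% of those changed by log2 0.5, 1 and 2 were called. In the real comparison 37.3% of genes were called. The adjusted threshold depends on that share, so these are not the detection rates of the real test.

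The members and gene lists were chosen with earlier results of these data known, and assembly factors were divided by complex after their values were seen. Named were up to 3 risers and 3 fallers of a complex in each comparison, genes moving against their complex, the Sdh genes, Cyc1, the tissue forms, and up to 3 called genes of a pathway list in each direction; not all are printed. Alternatives were other filters, probe set choices, scaling, variance models, array weights, a block for replicate number, fits restricted to the groups compared, and leaving out each array. The labels do not say whether replicate numbers pair the arrays, and the main fit did not pair them.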

Additional observations from a re-analysis of the deposited data

Results flagged for a closer look

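No subunit gene differed between thymic and splenic maturation by the limma test of that difference. Among genes around the chain it called 1 of 20 carrier, cytochrome c and inhibitor genes and 1 of 16 citric acid cycle genes, both as higher. It called 0 of 43 assembly factors and 0 of 21 biogenesis genes. Of all genes 1.79% were higher and 1.39% lower (3.18% in either direction). The 2 genes are thus described singly, not as a result about the lists. Gpd2, the glycerol-3-phosphate dehydrogenase that feeds electrons to ubiquinone, had a difference of 2.55 on the log2 scale (SE 0.34, limma adjusted p = 0.000682). It rose in thymus (10.94, 11 and 10.73 against 11.67, 11.83 and 11.89) and fell in untreated spleen (11.71, 11.62 and 11.50 against 9.26, 10.45 and 10.19). Idh3b, a subunit of isocitrate dehydrogenase, had a difference of 0.803 (limma adjusted p = 0.0487), and that call was lost with, among others, the 60th percentile filter (adjusted p = 0.0544) and array median centring (0.668, adjusted p = 0.096).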

How the results depend on the processing

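Of 215 called pairs of gene and comparison, 129 kept their call in every alternative and 117 also without any single array. Counts given as higher or lower subunit genes moved by over 1.5 times as follows. Thymic higher counts were 3 on the probe set of largest variance, 1 without _s_at, _x_at and _a_at probe sets (61 genes tested), 1 with centring, 2 with array weights and 2 with the compared groups only, and thymic lower counts 13 with centring and 37 with array weights. Splenic homeostatic higher counts were 1 with a 60th percentile filter, 5 on the probe set of largest variance, 1 without those suffixes, 0 with quantile normalisation, array weights or the compared groups only, and 4 with centring, with 8 lower. PolyI:C higher counts were 2 on the probe set of largest variance, 0 without those suffixes, 4 with centring and 2 with array weights, and lower counts 28 without those suffixes and 22 with centring. PolyI:C against homeostatic mature cells gave 0 higher with the 60th percentile filter, quantile normalisation or the compared groups only, and 12 lower with centring and 1 with the compared groups only. Immature thymus against spleen gave 0 higher on the mean of probe sets, without those suffixes, with centring and with trend and robust settings, 6 with array weights, 5 with the compared groups only, and 1 lower on the probe set of largest variance. Mature thymus against spleen gave 1 lower on the probe set of largest variance and without those suffixes, 1 higher with centring and 0 higher with the compared groups only. The cause was not tested, beyond the fewer genes or arrays these settings hold.

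Leaving out 1 array gave 15 to 26 lower and 0 to 3 higher genes in thymus, 9 to 23 and 0 to 4 in untreated spleen, 32 to 46 and 0 to 2 after polyI:C, and 9 to 27 and 0 to 1 for polyI:C against homeostatic mature cells. It gave 0 to 3 higher and 0 to 0 lower in immature and 0 to 4 higher and 0 to 0 lower in mature cells of thymus against spleen, and 0 to 1 higher and 0 to 0 lower for the difference of maturation. In untreated spleen 23 fell without spleen CCR7+ replicate 1, and 9 fell when spleen CCR7- replicate 1 was the array left out. Signs turned on dimmer probe sets: with the largest variance for Atp5c1 (0.0146 in untreated spleen, 0.434 after polyI:C) and Sdha (0.37 after polyI:C), and without those suffixes for Atp5c1 (the same values), Ndufa12 (0.676 in thymus, 0.472 after polyI:C) and Ndufb2 (0.0134 and 0.396).

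With the replicate number as a block, splenic homeostatic higher counts were 1 and no other count moved by over 1.5 times. In their deviations from group means, same-numbered arrays correlated at -0.397 to 0.635 (median 0.02, 13 of 30 over 0.1). Arrays of different number correlated at -0.553 to 0.485 (median -0.11, 21 of 60 over 0.1). Of 15 arrays 8 correlated best with their own number, and these values do not settle whether the numbers pair the arrays. Low signal compresses changes near background, and 3 arrays a group limit precision.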

Other observations

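Sco1, a copper chaperone of complex IV assembly, set polyI:C apart from homeostatic maturation in spleen. It read 6.08, 5.51 and 5.63 in spleen CCR7-, 4.26, 5.57 and 4.84 in spleen CCR7+ and 6.84, 7.87 and 7.51 after polyI:C, a rise of 1.66 against CCR7- cells by limma. Sco2, its paralogue, fell by 1.43 in the same comparison. In thymus Sco1 read 6.44, 6.26 and 6.34 and then 6.39, 6.15 and 6.39, which overlap.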
